A study of Mus musculus with 6 samples.

Results

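Chemokines are small secreted proteins that direct the migration of leukocytes by binding receptors coupled to G proteins on the target cell. Ligands are named by the spacing of their first cysteines (CC, CXC, CX3C and XC), and the receptors take the name of the ligands they bind. Atypical receptors (Ackr genes) bind chemokines without G protein signaling and remove or redistribute them. In adipose tissue the family is best known for recruiting monocytes, while the CXCL13 and CXCR5 pair organizes B cells in lymphoid tissue.

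Every gene of the deposited table whose symbol starts with Ccl, Cxcl, Ccr, Cxcr or Ackr and a number was taken, together with Cx3cl1, Cx3cr1, Xcl1 and Xcr1. The rule uses names only, not measured values, and gave 51 of 16538 listed genes, of which 29 code for ligands and 22 for receptors. The samples came from the subcutaneous inguinal depot of white fat (iWAT) of chow-fed mice held at 8°C for 10 days by the labels (the study's text gives a slightly longer stay), after gradual cooling. Control mice were fl/fl littermates carrying the floxed Nrg4 allele, called wt in the labels. AKO mice lacked Nrg4, which codes for the secreted factor neuregulin 4, in adipocytes. Deletion was driven by Adiponectin-Cre, so the other cells of the depot kept the gene. There were 3 samples per group, and each held RNA pooled from 2 mice, so the spread between samples understates the spread between mice. The labels give neither the age nor the sex of the mice, and nothing says how the pools were formed beyond genotype.

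Library depth was similar, with 17570335 to 18373707 reads on the listed genes. Values are normalized counts, that is, reads divided by a size factor for each library. Nrg4 itself had 3108 ± 18.3 normalized counts in control and 2632 ± 57.3 in AKO (SD, n = 3 per group), and the groups did not overlap. Nrg4 reads are counted over the whole gene, so this value does not measure the loss of the floxed exons. The 10 adipocyte markers summed to 459330 to 486390 in control and 407920 to 440860 in AKO, so the tissue's defining genes were present in every library. Control replicate 1 and AKO replicate 2 stood apart by their lymphocyte genes. The 12 listed B cell markers summed to 1602 and 2070 in those 2 libraries and to 135 to 174 in the other 4. The lymph node vessel gene Glycam1 had 87.3 and 232 normalized counts there and at most 1.02 in the others. The 15 skeletal muscle markers summed to 219, 24565 and 14003 in control replicates 1 to 3 and to 18233, 71302 and 106560 in AKO replicates 1 to 3, with 13 of the 15 higher in AKO and a median log2 fold change of 3.43. The part of muscle content in the chemokine values was not tested. RNA from bulk tissue cannot tell fewer cells of a type from less RNA per cell.

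The promoters of 3 ligands that the results turn on are shown 5′ to 3′ on the strand of the gene, upstream of the RefSeq start site (GRCm38.p6). Capitals mark matches on either strand to 3 motifs, which were the TATA box (TATAAA), an interferon regulatory factor (IRF) element (TTTCNNTTT) and the NF-kB site. Cxcl13 is shown because it had the smallest p of the family, Ccl8 for the largest difference among the monocyte-attracting ligands, and Cxcl10 as the interferon-induced ligand whose window holds both IRF and NF-kB letters.
Cxcl13, chr5:95956789-95956938, plus strand: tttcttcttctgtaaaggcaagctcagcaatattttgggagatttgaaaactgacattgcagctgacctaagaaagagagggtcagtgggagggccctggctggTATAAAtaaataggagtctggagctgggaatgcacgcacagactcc
Ccl8, chr11:82115035-82115184, plus strand: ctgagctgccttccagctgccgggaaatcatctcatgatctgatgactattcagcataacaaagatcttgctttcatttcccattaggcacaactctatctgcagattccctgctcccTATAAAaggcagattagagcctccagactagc
Cxcl10, chr5:92348890-92349139, minus strand: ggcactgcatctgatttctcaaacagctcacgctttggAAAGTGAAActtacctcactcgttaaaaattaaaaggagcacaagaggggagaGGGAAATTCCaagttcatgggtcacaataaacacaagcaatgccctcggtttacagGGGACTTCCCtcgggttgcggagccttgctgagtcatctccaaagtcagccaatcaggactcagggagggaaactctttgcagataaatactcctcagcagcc

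A promoter window (250 bases before and 50 after the start) was given for 38 of the 51 genes. A TATA box match was present in 13 of the 38 (34.2%) and in 15.7% of 27025 gene symbols with a promoter. In Cxcl13 the match began 46 bases before the start and in Ccl8 it began 32 bases before. The NF-kB site matched in 7 of the 38 (18.4%) and in 5.14% of all symbols. Cxcl10 held 2 NF-kB matches and 1 IRF match, whereas neither motif matched in the Cxcl13 or Ccl8 window. The IRF element matched in 5 of the 38 (13.2%) and in 12.1% of all symbols. These are matches of letters and not measured binding.

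Cxcl13, the ligand that draws B cells into follicles, was higher in AKO iWAT. It had 242, 155 and 165 normalized counts in control replicates 1 to 3, and 339.95, 391 and 337 in AKO replicates 1 to 3. All 3 AKO samples were above all 3 control samples, with means of 187 ± 47.6 and 356 ± 29.95 (SD, n = 3 per group). The log2 fold change was 0.95 with a standard error of 0.17, a ratio of means of 1.90. By limma, fitted on all 13855 genes with a mean of at least 10, the adjusted p was 0.205 (unadjusted p = 0.00053). With DESeq2 on the same libraries the adjusted p was 0.000365, so the call depends on the tool. Of the 13855 genes, limma called 0.0144% (2 genes), and DESeq2 called 0.839% of the 16206 genes to which it gave an adjusted p. An exact permutation test of 3 against 3 samples cannot go below p = 0.1, the value Cxcl13 reached. Cxcl13 had been singled out in the study from these same samples. The Cxcl13 gene spans chr5:95956951-95961068 on the plus strand in 4 exons.

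The Cxcl13 difference was as large without the lymphocyte-rich libraries, which were set aside after the data were seen. In the 4 remaining libraries the means were 160 in control and 339 in AKO, a ratio of 2.12, with a log2 fold change of 1.08 and an adjusted p of 0.192 by limma. Within the control group the lymphocyte-rich library had the highest Cxcl13, as it did within the AKO group. The part of lymphoid tissue in the Cxcl13 values was not tested. Leaving out any single library gave log2 fold changes from 0.83 to 1.15.

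Cxcr5, the receptor for CXCL13 on B cells, showed no such difference. It had 147, 51.6 and 52.9 normalized counts in control replicates 1 to 3, and 59.5, 140 and 52.1 in AKO replicates 1 to 3. The 2 lymphocyte-rich libraries were high and the other 4 were alike, so the groups overlapped fully. The log2 fold change was 0.04 with a standard error of 0.49 (adjusted p = 0.993, limma), an error wide enough to hold a change in either direction. The ratio of means was 1.001. Cxcr5 followed the B cell markers, and the part of B cell number in its level was not tested.

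**Figure D1:**
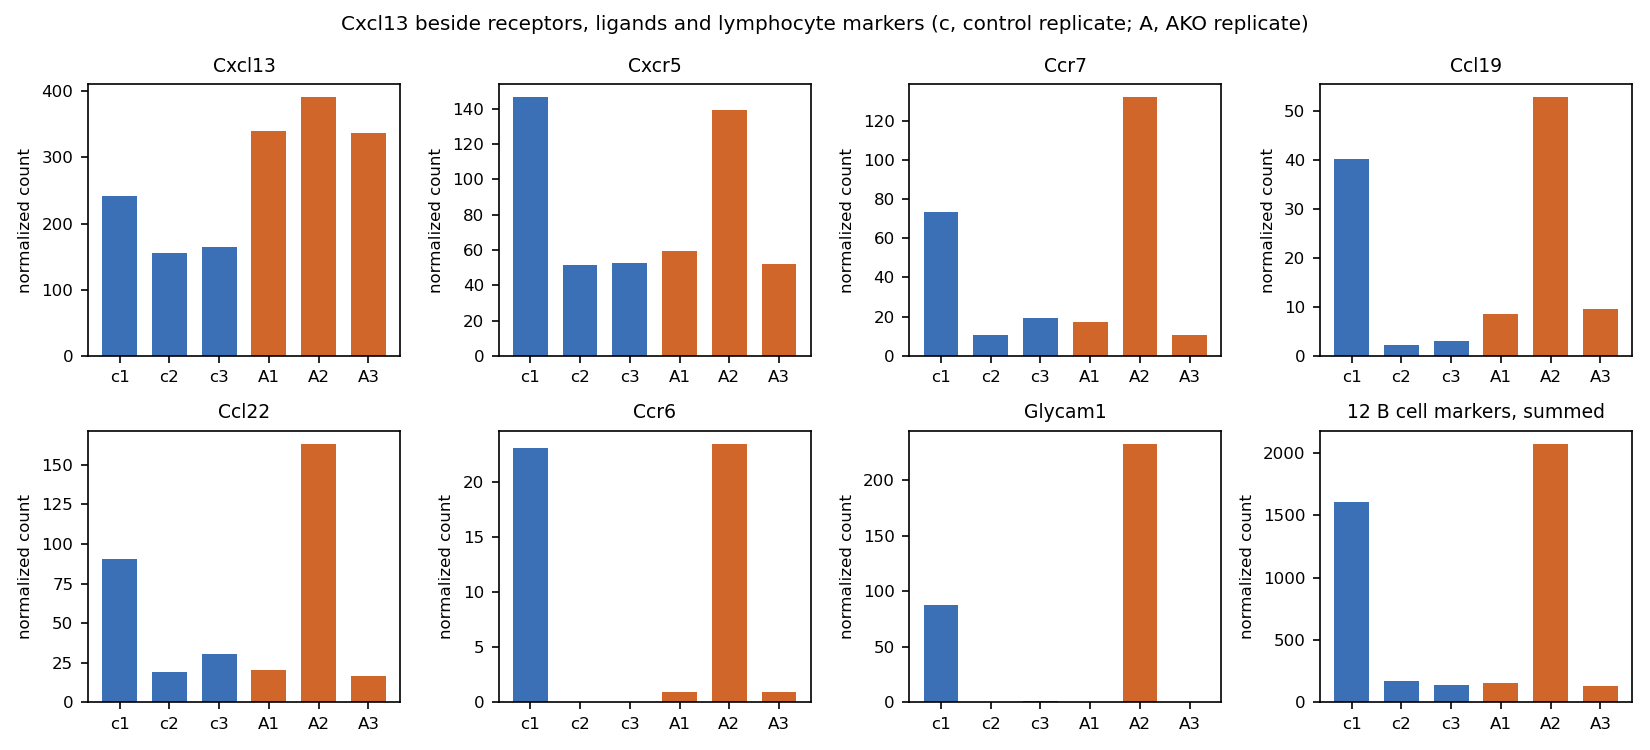
Normalized counts (y axis, linear from 0) in control replicates 1 to 3 (c1 to c3, blue) and AKO replicates 1 to 3 (A1 to A3, orange) for 6 chemokine genes, the lymph node vessel gene Glycam1 and the summed B cell markers. Cxcl13 is at 337 or more in all 3 AKO bars and at most 242 in control, while the other panels are high in c1 and A2.

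Several other chemokine genes of lymphoid tissue had the same 2 libraries on top, while Cxcl12, Cxcl14, Ccl27a and Cxcr4 did not. Ccr7, which guides lymphocytes and dendritic cells into lymph nodes, had 73.3, 10.8 and 19.3 normalized counts in control and 17.3, 132 and 10.6 in AKO. Its ligand Ccl19 had 40.1, 2.15 and 3.05 in control and 8.64, 52.7 and 9.64 in AKO. Ccl22, a dendritic cell ligand of CCR4, had 90.3, 19.4 and 30.5 in control and 20.2, 163 and 16.4 in AKO. In each of the 3 genes the lower of the 2 lymphocyte-rich libraries was at least 2.96 times the highest of the rest. Ccr6, the CCL20 receptor, had 23.1 and 23.4 in those 2 libraries and at most 0.964 in the other 4. Of the 41 tested genes, 7 (17.1%) had control replicate 1 and AKO replicate 2 as their 2 highest libraries, against 8.99% of all genes tested. Of 19 tested genes for lymphoid tissue organization, 15 had positive log2 fold changes with a median of 0.193, and limma and DESeq2 called 0. At an unadjusted p under 0.05, 2 of the 19 (10.5%) passed, the B cell survival factor Tnfsf13b (0.32) and the stromal gene Pdpn (0.40), a share near the 9.1% of all genes tested. The log2 fold change of Ccl19 was 1.13, the second largest among the family, but its standard error was 1.07 (adjusted p = 0.814, limma).

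Over the whole family, 41 genes passed the filter of a mean of 10, comprising 25 ligands and 16 receptors. Limma called none of the 41 at an adjusted p under 0.05, DESeq2 called 1 of 50 (Cxcl13), and edgeR and limma-voom called none. At an unadjusted p under 0.05, 3 of the 41 (7.32%) passed, which were Cxcl13, Ccl8 and Ccl11, against 9.1% of all genes tested. Groups did not overlap for 2 of the 41 (4.88%), Cxcl13 higher and Cxcl11 lower in AKO, against 14.5% of all genes tested. Both shares lie near or under the background. Log2 fold changes were above 0 for 30 of the 41, with a median of 0.237, and above 0 for 51.9% of all genes tested, with a median of 0.007. The median log2 fold change of the family was 0.0128 without control replicate 2, so its size rests on 1 library. The family's values were less precise than most, with a median standard error of 0.239 against 0.114 over all genes.

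**Figure D2:**
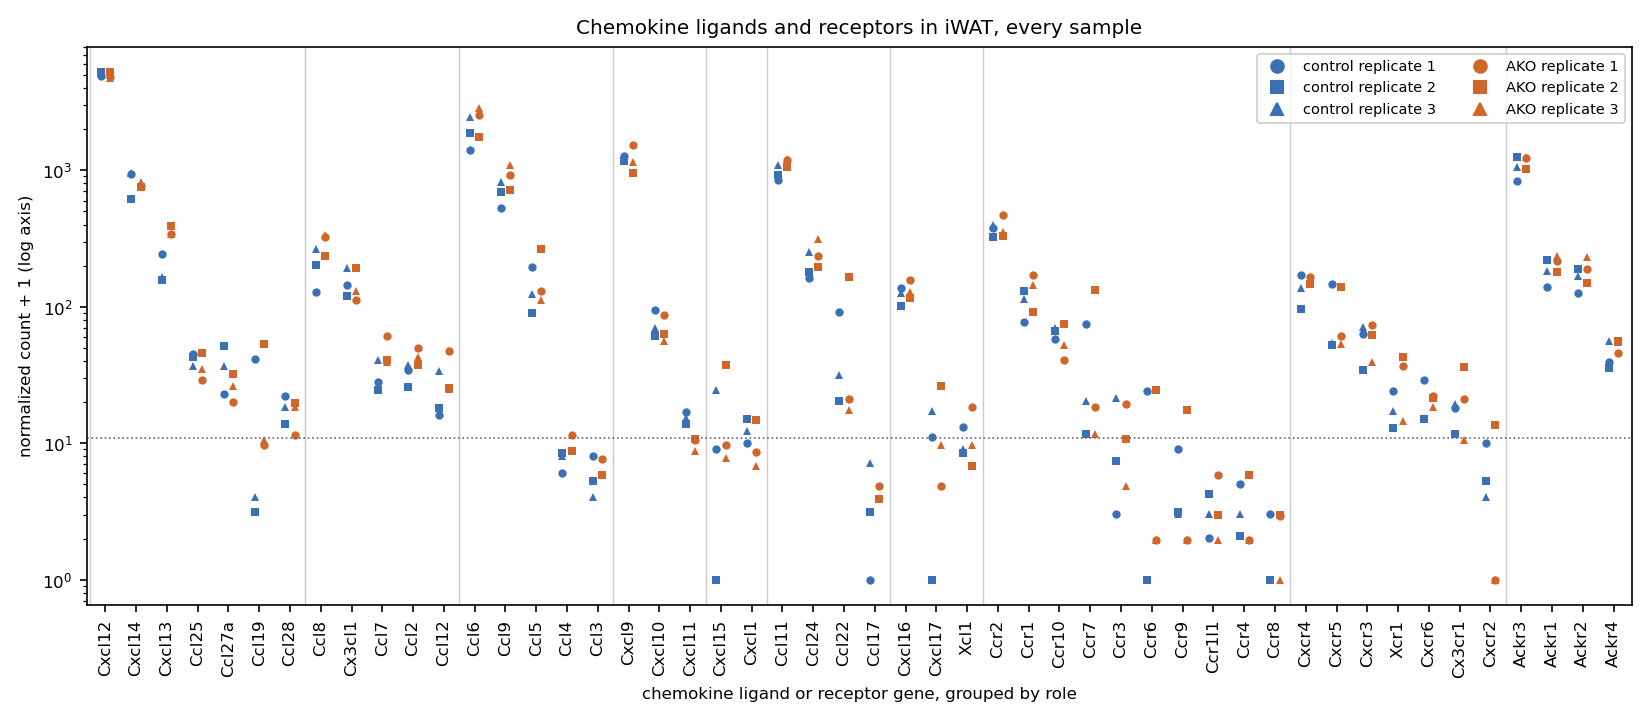
Normalized count plus 1 (y axis, log scale) for the chemokine genes described here (x axis, grouped by role and sorted by mean), with control samples in blue and AKO samples in orange, marker shape giving the replicate number. The dotted line is a normalized count of 10, and the colors separate only for Cxcl13, Cxcl11 and Ccl4, of which Cxcl11 and Ccl4 have few reads.

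**Figure D3:**
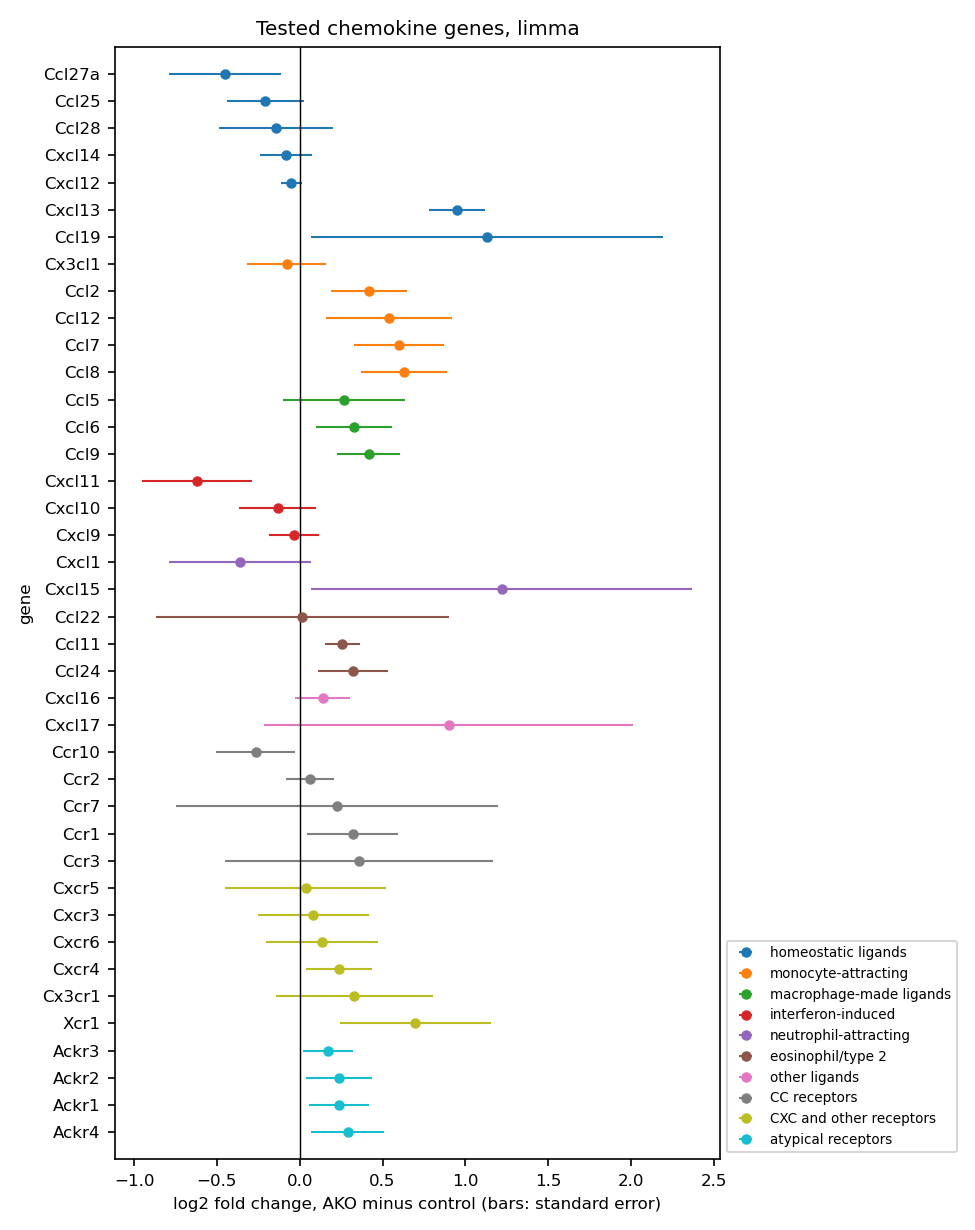
Log2 fold change of AKO minus control (x axis) for the tested genes described here (y axis), colored by role, with bars of 1 standard error from limma. Cxcl13 is at 0.95 with a short bar, while Ccl19, Cxcl15 and Cxcl17 reach 0.90 to 1.22 with bars of over 1.

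The monocyte-attracting ligands were mostly higher in AKO, though none passed the adjusted test. Ccl2, Ccl7, Ccl11, Ccl12 and Ccl8 lie side by side on chr11:82035571-82116799, a stretch of 81.2 kb. All 5 had positive log2 fold changes, from 0.26 to 0.63, and stayed positive in every fit that was run. Ccl8, a CC ligand that attracts monocytes, had 127, 201 and 264 normalized counts in control and 324, 235 and 332 in AKO. AKO replicate 2 lay between control replicates 2 and 3, so the groups overlapped. The log2 fold change of Ccl8 was 0.63 with a standard error of 0.26 (unadjusted p = 0.041 and adjusted p = 0.532 by limma, exact permutation p = 0.2). With single libraries left out it ran from 0.35 to 0.87, the lowest without control replicate 1. Ccl7, a ligand of CCR2, had 27.1, 23.7 and 39.6 in control and 59.5, 40.0 and 38.6 in AKO, and a log2 fold change of 0.60 ± 0.27 (SE). Ccl2, the main CCR2 ligand, had 33.1, 24.7 and 36.6 in control and 49.0, 36.1 and 41.5 in AKO, a log2 fold change of 0.42 ± 0.23 (SE). Ccl12 had a log2 fold change of 0.54 ± 0.38 (SE). Cx3cl1, the membrane-bound ligand of CX3CR1, was at -0.08.

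Ccl11 (eotaxin), which attracts eosinophils through CCR3, had 849.97, 927 and 1099 normalized counts in control and 1178, 1048 and 1199 in AKO. Control replicate 3 was above AKO replicate 2. The log2 fold change was 0.26 with a standard error of 0.10 (unadjusted p = 0.039 and adjusted p = 0.531 by limma, exact permutation p = 0.2). Ccl24, a second eotaxin, was at 0.32 ± 0.21 (SE). Their receptor Ccr3 had 2.01 to 20.3 in control and 3.86 to 18.2 in AKO, too few reads to place a difference.

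Ligands made by macrophages followed a like pattern. Ccl6, a ligand of CCR1, had 1403, 1858 and 2458 normalized counts in control and 2522, 1766 and 2840 in AKO, a log2 fold change of 0.33 ± 0.23 (SE). Ccl9 had 532, 689 and 817 in control and 921, 709.8 and 1091 in AKO, a log2 fold change of 0.42 ± 0.19 (SE, unadjusted p = 0.060 by limma). In both genes AKO replicate 2 fell within the control range. Without control replicate 1 the log2 fold change was 0.125 for Ccl6 and 0.251 for Ccl9. Ccl5, which T cells and macrophages also make, was at 0.27 ± 0.37 (SE), with its highest value in AKO replicate 2 (262).

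Macrophage markers were mostly higher in AKO as well. The 12 macrophage markers summed to 11052 to 15249 in control and 13166 to 18200 in AKO, with 11 of the 12 higher in AKO. The 10 resident macrophage markers summed to 6186 to 9085 in control and to 8581 to 11667 in AKO, and all 10 had positive log2 fold changes. Limma called 0 genes of either list after adjustment. At an unadjusted p under 0.05, 4 of the 12 (33.3%) and 6 of the 10 (60%) passed, all higher in AKO, against 9.1% of all genes tested in either direction. DESeq2 called 1 of the 10 resident macrophage markers (Cd209b), against 0.839% of all genes to which it gave an adjusted p. Timd4, a marker of resident macrophages, had 130, 117 and 130.1 normalized counts in control and 178, 253 and 173 in AKO, the same order of groups as Cxcl13. Cd209b, a second marker, had 282, 239 and 219 in control and 304, 530.1 and 381 in AKO. These 2 genes were picked after their values were seen. They were the only 2 of the 10 whose groups did not overlap (20%, against 14.5% of all genes tested). In both, AKO replicate 2 was the highest library, whereas in the rest of the list it was the lowest AKO library. The 7 lipid-associated macrophage markers were mixed, with 5 higher, Trem2 at -0.18 and Ctsd at -0.04. Of the 7, 2 passed an unadjusted p under 0.05 by limma and had groups that did not overlap, Gpnmb (0.67) and Lgals3 (0.42). That share, 28.6%, stands beside 9.1% and 14.5% of all genes tested. DESeq2 called 1 of the 7, Gpnmb (adjusted p = 0.0015). Of the 10 adipocyte progenitor markers, 9 were higher in AKO. An unadjusted p under 0.05 was passed by 3 (30%, against 9.1% of all genes tested). Groups did not overlap for 3 (30%, against 14.5%), and DESeq2 called 1 (Dpp4). The part of macrophage or progenitor number in the ligand values was not tested.

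**Figure D4:**
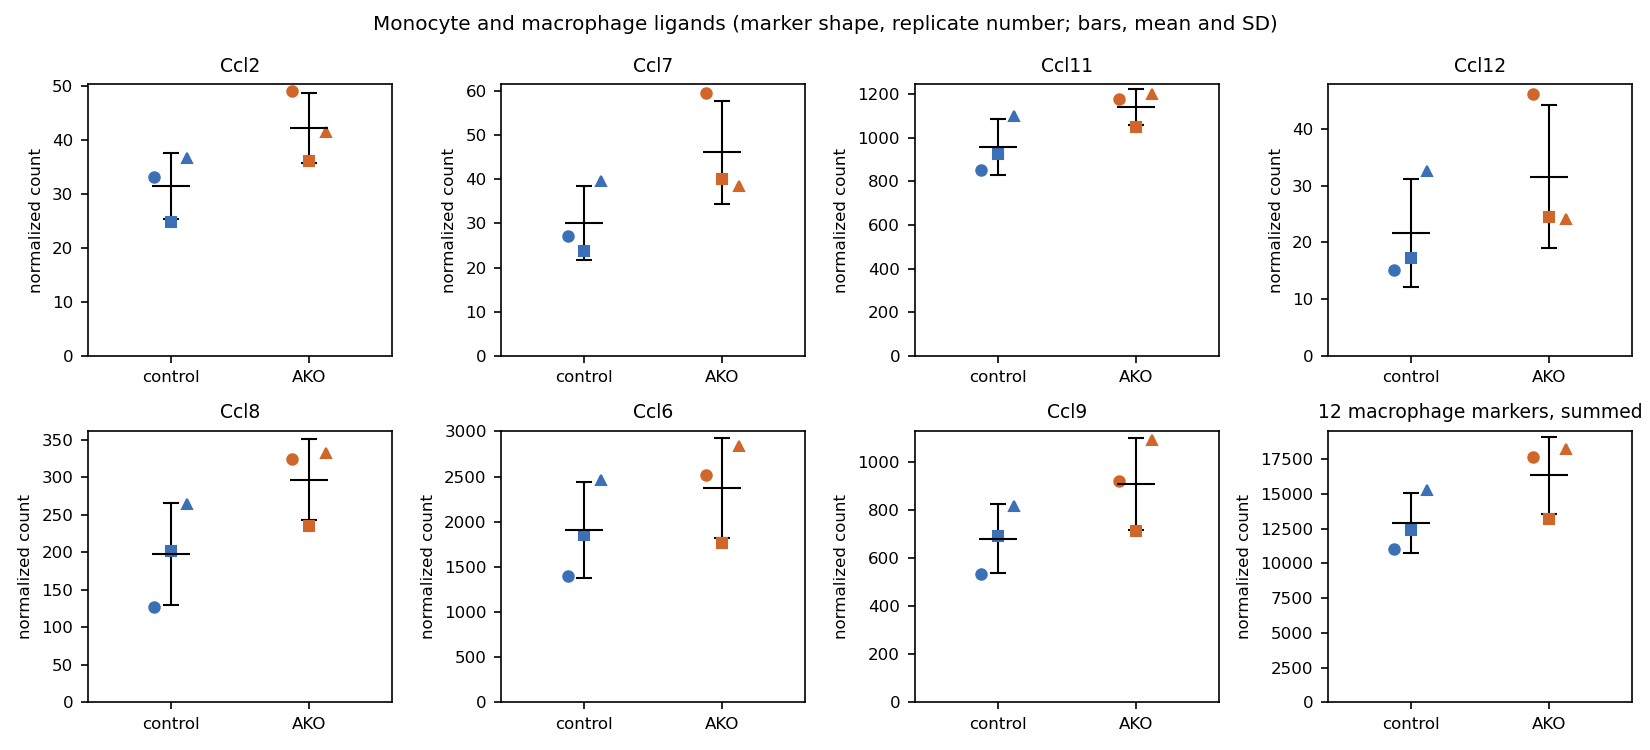
Normalized counts (y axis, linear from 0) of 7 ligands and the summed macrophage markers in control and AKO, with marker shape giving the replicate number and bars the mean and SD of 3 samples. Every AKO mean is above the control mean and the points of the 2 groups overlap in each ligand panel.

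The interferon-induced ligands of CXCR3 did not share that direction. Cxcl9 had 1262, 1173 and 1217 normalized counts in control and 1525, 958 and 1146 in AKO, a log2 fold change of -0.04 ± 0.15 (SE). Cxcl10, whose promoter above holds the interferon and NF-kB letters, had 94.3, 60.2 and 69.1 in control and 86.4, 62.5 and 55.0 in AKO, a log2 fold change of -0.13 ± 0.23 (SE). Cxcl11 had 16.1, 12.9 and 14.2 in control and 9.60, 9.76 and 7.71 in AKO, so every AKO value was below every control value. Its log2 fold change was -0.62 ± 0.33 (SE) with an adjusted p of 0.623 by limma. Cxcl11 is annotated as a polymorphic pseudogene in the mouse reference, shares 41.7% of its exon bases with Gm2673, and its few reads leave counting error large. Their receptor Cxcr3 was at 0.08 ± 0.33 (SE). Of 14 tested genes of the interferon-gamma pathway, which induces these ligands, 10 had positive log2 fold changes with a median of 0.0842. Limma and DESeq2 called 0 of them, and at an unadjusted p under 0.05 only the receptor subunit Ifngr2 (0.15) passed, 7.14% of the list against 9.1% of all genes tested.

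Cxcl12, which holds leukocytes and progenitors in tissue through CXCR4, had the most normalized counts of the ligands, 39.8% of their total, without correction for its long transcript. It had 4893, 5215 and 5185 normalized counts in control and 4812, 5207 and 4744 in AKO, a log2 fold change of -0.05 ± 0.06 (SE). The groups overlapped. Cxcl14, a ligand abundant in fat, was at -0.08 ± 0.16 (SE). Reads per kb of exon, a scale on which different genes can be set side by side, ranked Ccl6 (1193), Ccl11 (971), Cxcl12 (613), Ccl8 (484) and Cxcl14 (442) highest among the ligands. Cxcl13 was 8th of the 29 ligands at 236 per kb. Ackr3 (330 per kb), Ackr1 (138), Cxcr4 (79.6), Ackr2 (55.9) and Ccr2 (55.5) were highest among the receptors, and Cxcr5 was 9th of 22 at 25.1 per kb.

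Apart from Cxcl13, the third largest positive difference of the family, the largest differences by size lay in genes with few reads. Cxcl15, an epithelial chemokine, had 8.03, 0 and 23.4 normalized counts in control and 8.64, 36.1 and 6.75 in AKO, a log2 fold change of 1.22 ± 1.15 (SE). Cxcl17, a mucosal chemokine, had 10.0, 0 and 16.3 in control and 3.84, 25.4 and 8.68 in AKO. In both the highest value was in AKO replicate 2 and control replicate 2 was at 0. The 10 mammary epithelial markers summed to 567, 22.6 and 1484 in control and 173, 2013 and 698 in AKO, with the same lowest library. How far epithelium in the depot sets both genes was not tested. Among the negative differences, Ccl27a, a skin ligand of CCR10, was at -0.45 ± 0.34 (SE), and Cxcl1, which attracts neutrophils, was at -0.36 ± 0.43 (SE).

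**Figure D5:**
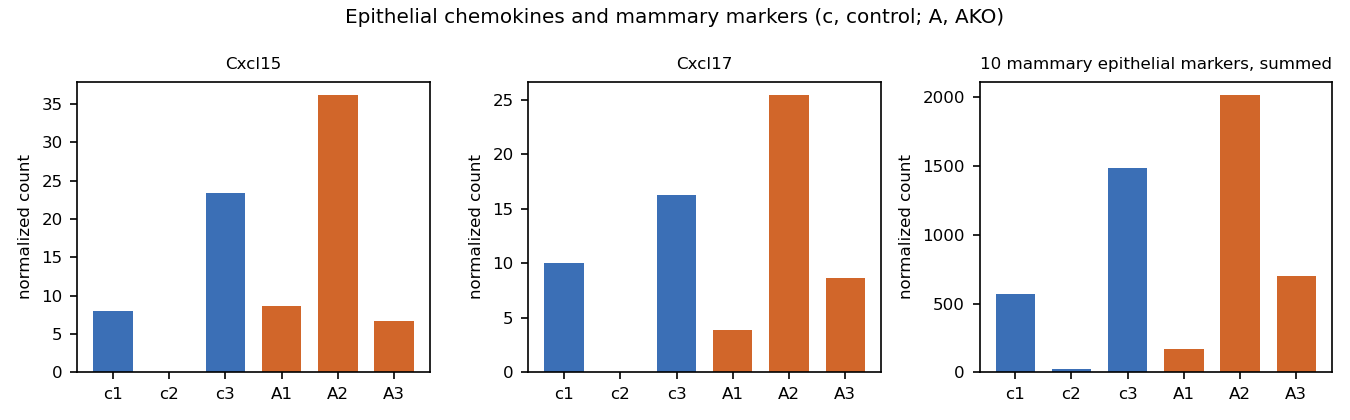
Normalized counts (y axis, linear from 0) of Cxcl15, Cxcl17 and the summed mammary epithelial markers in control (c1 to c3, blue) and AKO (A1 to A3, orange) replicates. All 3 panels are highest in A2 and lowest or at 0 in c2.

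Among the receptors, 15 of the 16 tested were higher in AKO, against 51.9% of all genes tested, with a median log2 fold change of 0.237. No receptor passed limma's unadjusted threshold of 0.05, and DESeq2 and edgeR called none. Without control replicate 2 the count was 10 of 16, and without both lymphocyte-rich libraries it was 12 of 16. The 22 receptors together summed to 2311 to 2561 in control and 2666 to 2973 in AKO, while the groups overlapped for every tested receptor. The largest part of these sums came from Ackr3, with a mean of 1104. Ackr3, which scavenges CXCL12, had 831, 1251 and 1049 normalized counts in control and 1238, 1012 and 1244 in AKO, a log2 fold change of 0.17 ± 0.15 (SE). Ackr1, which displays chemokines on venules, was at 0.24 ± 0.18 (SE), and Ackr2, which clears inflammatory CC ligands, was at 0.24 ± 0.20 (SE). Without control replicate 1 the log2 fold changes fell to 0.0175 for Ackr3, 0.0601 for Ackr1 and 0.0695 for Ackr2. Of the Ackr1 exon bases, 25.7% overlap Cadm3, and without a stated strand setting the reads of the 2 genes cannot be told apart there.

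Cxcr4, the signaling receptor for CXCL12, had 171, 95.7 and 135 normalized counts in control and 163, 146 and 152 in AKO, a log2 fold change of 0.24 ± 0.20 (SE). With single libraries left out, Cxcr4 ran from 0.0185 to 0.432. Ccr2, the receptor of inflammatory monocytes, had 374, 326 and 395 in control and 472, 328 and 354 in AKO, and its log2 fold change was 0.06 ± 0.15 (SE) while its ligands Ccl2, Ccl7 and Ccl12 were at 0.42 to 0.60. Xcr1, which marks cross-presenting dendritic cells, had the largest of the receptors, 0.70 ± 0.46 (SE). It had 23.1, 11.8 and 16.3 in control and 35.5, 42.0 and 13.5 in AKO, so AKO replicate 3 was inside the control range. Ccr10 was the only tested receptor with a negative value, -0.27 ± 0.24 (SE).

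The 10 genes under the filter were Xcl1, Ccr6, Ccl4, Ccl3, Ccr9, Cxcr2, Ccl17, Ccr1l1, Ccr4 and Ccr8, with 0 to 24 reads per library. At that depth no difference could be resolved. In 5 of the 10 the same 2 lymphocyte-rich libraries were the highest. Ccl4, which macrophages secrete, had groups that did not overlap at 5.02 to 7.53 in control and 7.71 to 10.6 in AKO, an amount of counts too small to separate from counting error. Leaving out both lymphocyte-rich libraries, groups did not overlap for 17 of 38 genes, 12 higher and 5 lower, against 42.4% of all genes tested under the same 2 against 2 split.

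The signaling genes downstream of the receptors were listed separately. Of 33 tested genes for chemokine receptor signaling, 24 had positive log2 fold changes with a median of 0.109, and neither limma nor DESeq2 called any. At an unadjusted p under 0.05, 4 of the 33 (12.1%) passed, near the 9.1% of all genes tested. Among them Pik3cg (0.39) and Prex1 (0.32), which act in leukocyte signaling, were higher in AKO and Adrbk2 (-0.53), a receptor kinase, was lower. Groups did not overlap for 7 of the 33 (21.2%), against 14.5% of all genes tested in either direction. All 7 were higher in AKO and 0 were lower, where all genes tested gave 6.14% higher and 8.31% lower. Among the 10 listed chemokine-related genes outside the naming rule, Dpp4, a protease that trims chemokines, was at 0.57. It was called by DESeq2 (adjusted p = 0.0092) but not by limma. Dpp4 is also 1 of the 10 adipocyte progenitor markers, of which 9 were higher in AKO.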

How the data were processed

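RNA was sequenced from iWAT of 3 control and 3 AKO samples. Per the labels and the study's methods, reads were aligned with STAR to GRCm38 and counted per gene with featureCounts, and the authors deposited the counts divided by DESeq2 size factors (a signal that is not a raw count). The authors' own columns of log2 fold changes and p-values in the deposited table were not used. Whole reads were recovered in all 6 samples (tolerance 0.001). Values as log2(value + 1) were tested with limma 3.58.1 in R 4.3.3 with a trended variance, in 13855 genes with a mean of at least 10, with Benjamini-Hochberg adjustment. DESeq2 1.42.0 and edgeR 4.0.16 on recovered reads were alternatives. The main limma fit, edgeR with TMM factors, DESeq2 with its own size factors and limma-voom were checked on simulated data. Fold changes are on the log2(value + 1) scale, which understates low genes. Gene positions are from GENCODE M21 and promoters from RefSeq, both on GRCm38. Genes named were those with an unadjusted p under 0.05, non-overlapping groups, the highest reads per kb, receptor and ligand pairs, and the largest rises and falls. The members and lists were chosen with earlier results of these data known. Items withheld from this text are counted in totals but not reported singly. p-values measure only the spread between pools.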

Additional observations from a re-analysis of the deposited data

How the results depend on the processing

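Cxcl13 was positive in every fit, and its call depends on the tool: DESeq2 gave a log2 fold change of 0.926 with 1 member called. Genes called over all genes tested numbered 2, and 6 with at least 10 in every sample, 136 by DESeq2, 11 with robust shrinkage, 11 at an adjusted p under 0.1, and 0 without both lymphocyte-rich libraries (chosen after the data were seen), with a range of 0 to 3 when single libraries were left out. Cxcr5 was -0.000668 by edgeR with RLE factors, -0.000432 by DESeq2 and -0.4 to 0.527 with single libraries left out. The median over the family was 0.0128 to 0.245 with single libraries left out, the lowest without control replicate 2. Groups did not overlap for 1 member with at least 10 in every sample, for 17 of 38 without both lymphocyte-rich libraries, and for 3 to 12 with single libraries left out. Smaller groups separate more often, with 14.5% of all genes tested at 3 against 3 samples and 42.4% at 2 against 2. These counts therefore cannot be compared between settings. With edgeR and TMM factors Cxcl9 was 0.00392. With limma-voom quality weights Ccl22 was -0.0988, Ccr3 -0.0057 and Cxcl9 0.0118. Without both lymphocyte-rich libraries Ccl22 was -0.4, Ccr3 -0.383, Ccr7 -0.0851, Cx3cr1 -0.00508, Cxcl10 0.0942, Cxcl14 0.0369 and Cxcl9 0.146. With single libraries left out, log2 fold changes ran from -0.322 to 0.0922 for Ccl28, -0.331 to 0.88 for Ccr3, -0.317 to 0.0476 for Cxcl10, -0.286 to 0.024 for Cxcl14, -1.02 to 0.632 for Ccl22, -0.0952 to 0.167 for Ccr2, -0.84 to 0.978 for Ccr7, -0.0785 to 2.23 for Cxcl15, -0.363 to 1.47 for Cxcl17, -0.24 to 0.342 for Cxcr3, -0.0319 to 0.447 for Cxcr6, -0.302 to 0.104 for Cx3cl1, -0.105 to 0.566 for Ccl5, -0.0924 to 0.79 for Cx3cr1 and -0.216 to 0.12 for Cxcl9. Of 720 gene-by-setting values, 41 reversed, in 16 of 41 members. Where values changed, the cause was not tested. Replicate numbers did not pair the samples (correlations 0.135, -0.351 and 0.24), and the fit with the replicate number as a block gave Cxcl13 0.95 with an adjusted p of 0.118, 2 genes called and 0 members. Low read numbers limit the genes with a mean under 30, 11 of those tested.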
